A study of Homo sapiens with 6 samples.

Results

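The 7 genes described here encode matrix collagens, stromal surface receptors and matrix proteases, and they were picked by name from a table of 453 features in which their difference between treated and untreated cells had already been seen. All 7 were found, as 7 of the 452 gene rows, the remaining row being an ERCC spike-in RNA. They are the collagen genes COL27A1 and COL7A1, the surface protein genes PDGFRA, ENG and LRRC15, and the protease genes CTSK and PLAU. Poly(A) RNA was sequenced from LX2, an established line of human hepatic stellate cells, in 3 libraries of cells kept for 24 h with recombinant GDF15 at 1 ug/ml (GDF15) and 3 libraries of untreated cells (Untreated). The labels call the cell type epithelial while the series' design text speaks of hepatic stellate cells, they name no further agent or allele in either group, and they do not say whether the libraries came from separate cultures. The spread between libraries may therefore be technical, and results hold for this single line.

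Stellate cells sit between hepatocytes and sinusoidal endothelium and store retinoids at rest. On injury they take on a fibroblast-like state, in which PDGF and TGF-beta receptors at their surface drive division and the secretion of collagen, and proteases of the plasminogen and cathepsin families cut the matrix that is laid down. GDF15 is a secreted stress-induced cytokine distantly related to TGF-beta, whose established receptor, GFRAL with RET, is known from the brainstem.

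All 7 genes were higher with GDF15 by the group means, by 1.36-fold for ENG and PLAU to 2.26-fold for PDGFRA, and in each of them the lowest GDF15 library lay above the highest Untreated library. The adjusted p in the authors' deposited table was 0.911 for each of the 7, so none passed 0.05. Of all 453 rows, 0% passed it. Of these rows, 60.5% were higher with GDF15 at an unadjusted p under 0.05, 37.3% were higher without overlap between the groups, and 14.1% were at least 2-fold higher. Among the 7 genes 7, 7 and 3 met these descriptions, but they were chosen on this contrast, so nothing is read from the counts, and no test of the difference is given. Only rows with an unadjusted p under 0.05 are in the table. ENG lay nearest to that limit, with p = 0.0421 in the authors' deposited table, and genes outside the limit were not analysed here. The median log2 ratio of means was 0.90 over the 7 genes and 0.70 over the 274 rows higher with GDF15.

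Values are normalized counts, read counts per gene divided by the authors by a single factor per library. They are given for GDF15 replicates 1, 2 and 3 and then Untreated replicates 1, 2 and 3, with means ± SD over n = 3 libraries. In bulk RNA, a change in the number of cells that express a gene and a change in RNA per cell cannot be told apart.

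**Figure D1:**
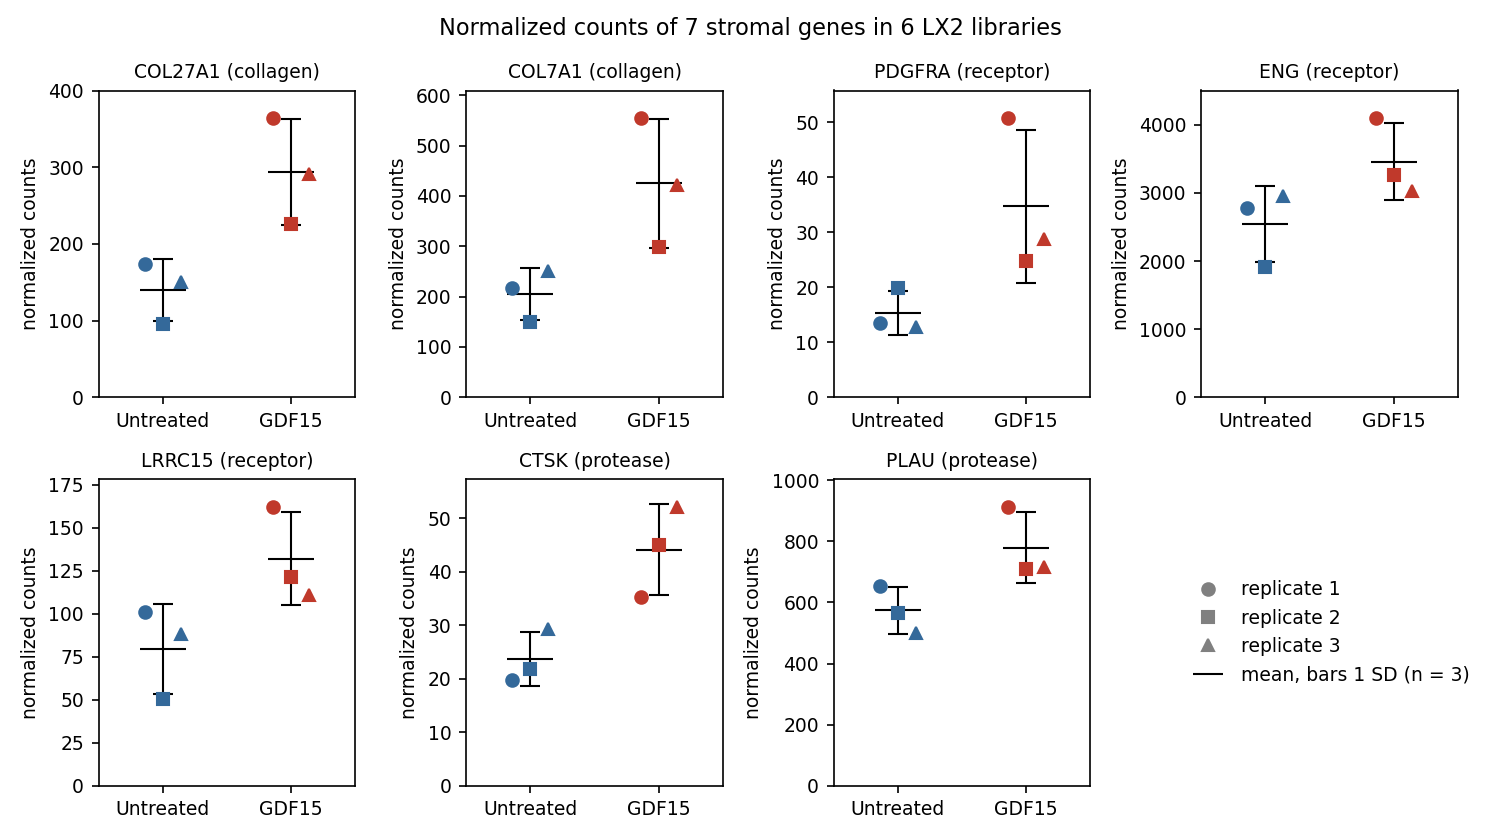
Normalized counts of the 7 genes in each library (y axis, linear, from 0), with Untreated libraries in blue, GDF15 libraries in red, 1 marker shape per replicate number, and the group mean with bars of 1 SD (n = 3). In every panel the GDF15 points lie above the Untreated points, and GDF15 replicate 1 is the highest library in 6 of the 7 genes. The ratio of the lowest GDF15 to the highest Untreated library is smallest in ENG, at 1.02.

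The promoter sequences of 3 of the genes are shown, those of the 2 collagen genes, which head the table by p, and of LRRC15, a marker of stromal fibroblasts. Each is the 250 bases before the RefSeq start site on GRCh38.p14, 5′ to 3′ on the gene's strand, and none holds an annotated exon base of its gene. Capitals mark matches on either strand to AP-1 (TGANTCA), the NF-kB core, the short SMAD element (CAGAC), the GC box (GGGCGG) and the TATA box (TATAAA).
COL7A1, chr3:48595330-48595579, minus strand: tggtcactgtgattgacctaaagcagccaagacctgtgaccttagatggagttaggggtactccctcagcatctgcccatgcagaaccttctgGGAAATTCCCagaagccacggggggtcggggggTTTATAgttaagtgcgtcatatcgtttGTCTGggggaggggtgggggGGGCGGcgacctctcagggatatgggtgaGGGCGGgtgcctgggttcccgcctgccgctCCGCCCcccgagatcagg
COL27A1, chr9:114155287-114155536, plus strand: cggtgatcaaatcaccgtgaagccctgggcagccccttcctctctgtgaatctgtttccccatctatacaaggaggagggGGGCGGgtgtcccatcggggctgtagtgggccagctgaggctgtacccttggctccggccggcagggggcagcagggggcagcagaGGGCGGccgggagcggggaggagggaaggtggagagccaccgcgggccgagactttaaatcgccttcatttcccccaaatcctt
LRRC15, chr3:194369744-194369993, minus strand: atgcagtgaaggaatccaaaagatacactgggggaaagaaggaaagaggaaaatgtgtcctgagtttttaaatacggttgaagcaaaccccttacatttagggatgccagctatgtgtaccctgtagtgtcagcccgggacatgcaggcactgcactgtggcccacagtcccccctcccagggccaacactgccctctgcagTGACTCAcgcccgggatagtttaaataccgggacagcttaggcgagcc
The COL7A1 window held a match to the NF-kB core, GGAAATTCCC, from 157 to 148 bases before the start, and 1.73% of the 35116 RefSeq windows of this length held such a match. LRRC15 held an AP-1 match, TGACTCA, from 48 to 42 bases before its start, where 6.57% of windows held 1 anywhere. COL27A1 held 2 GC boxes and COL7A1 held 3, a motif present in 42.6% of windows. COL7A1 also held a short SMAD element, found in 38.0% of windows, and a match to the TATA box letters, found in 10.7%. The latter was on the opposite strand, as TTTATA, from 124 to 119 bases before the start. Over the 8 windows that RefSeq gives for 6 of the 7 genes, AP-1 was in 2, the NF-kB core in 1, the short SMAD element in 3, the GC box in 4 and the TATA box in 1. The hypoxia response core (ACGTG, in 18.5% of windows) and the SMAD palindrome (GTCTAGAC, in 0.182%) were in none of them. PDGFRA and PLAU have 2 windows each. In the PDGFRA window with an AP-1 match and a short SMAD element, 196 of the 250 bases are annotated exon of the gene. In the ENG window 98 are. A loose form of the serum response CArG box, with any bases in its middle, was in 6 of the 8 and in 73.7% of all windows, and it is not marked above. Matches could overlap each other, and they describe letters in these windows only.

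The 2 collagen genes headed the authors' deposited table by unadjusted p, at 0.000125 for COL27A1 and 0.000208 for COL7A1, values of the contrast on which they were chosen. COL27A1 encodes a fibrillar collagen known from cartilage. COL27A1 (ENSG00000196739, GRCh38 chromosome 9, 114155560 to 114312511, plus strand) had 364, 226 and 292 normalized counts with GDF15 and 174, 95.7 and 150 without. GDF15 replicate 1 was the highest and Untreated replicate 2 the lowest library, and the groups stood 51.6 normalized counts apart at their nearest. The means were 294 ± 69.2 and 140 ± 40.1 (SD, n = 3), a 2.10-fold difference. Within replicate numbers 1, 2 and 3 the fold was 2.09, 2.36 and 1.95.

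COL7A1 encodes the collagen of the anchoring fibrils that tie basement membrane to the stroma beneath it. COL7A1 (ENSG00000114270, chromosome 3, 48564073 to 48595267, minus strand) had 554, 299 and 422 normalized counts with GDF15 and 216, 149 and 250 without. GDF15 replicate 1 was again the highest library and Untreated replicate 2 the lowest. The order of GDF15 libraries, replicate 1 above 3 above 2, was that of COL27A1, PDGFRA, PLAU and 28.5% of the 274 rows higher with GDF15, while the Untreated orders of the 2 collagens differed. The means were 425 ± 128 and 205 ± 51.6 (SD, n = 3), a 2.08-fold difference, with folds of 2.57, 2.01 and 1.69 within replicate numbers. Per kilobase of annotated exon, COL7A1 had 18.5 ± 4.66 normalized counts in Untreated libraries and COL27A1 9.998 ± 2.87, levels that did not overlap between the 2 genes in these 3 libraries. Each gene hosts a microRNA locus, MIR711 sharing 36 bases with COL7A1 exons and MIR455 sharing 0 with those of COL27A1.

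Both genes have the exon structure of collagens, in which many coding exons are whole multiples of 9 bases, the length that encodes a Gly-X-Y triplet. Of the 118 coding exons of COL7A1, the most of any annotated row, 66.1% were multiples of 9, and of the 61 of COL27A1 86.9% were. In COL27A1, 33 coding exons had exactly 54 bases, the unit of fibrillar collagen genes, against 5 in COL7A1. Over the other coding rows, leaving out these genes and COL16A1, 14.4% of coding exons were multiples of 9, and the median coding row had 8 coding exons.

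Of 44 collagen genes, 3 were in the table, all higher with GDF15, and the third was COL16A1, a collagen that associates with fibril surfaces. COL16A1 had 297, 237 and 228 normalized counts with GDF15 and 191, 144 and 213 without. Its groups did not overlap, although GDF15 replicate 3 and Untreated replicate 3 lay close together. Its means were 254 ± 37.3 and 183 ± 35.2 (SD, n = 3), and the log2 ratio of 0.48 became 0.33 without Untreated replicate 2. The main fibrillar collagen genes of scar matrix, COL1A1, COL1A2 and COL3A1, are not in the table and were not analysed here.

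Enzymes that act on collagen before and after secretion were in the table in 4 of 34 cases, all higher, and the libraries of the groups overlapped in all 4. They were the prolyl hydroxylase genes P4HA1 and P4HA2, whose products stabilise the triple helix, the lysyl hydroxylase gene PLOD2 and the lysyl oxidase-like gene LOXL4, both of cross-linking. P4HA2 had 9493, 4404 and 4026 normalized counts with GDF15 and 4139, 3440 and 3558 without. GDF15 replicate 1 held far more than the others, and leaving it out took the log2 ratio of P4HA2 from 0.69 to 0.18. PLOD2 then went from 0.58 to 0.24. P4HA1, at 0.73 with all libraries, had 0.50 without GDF15 replicate 1, 0.46 without Untreated replicate 3 and 1.24 without Untreated replicate 1. LOXL4 had 83.8, 145 and 181 normalized counts in GDF15 replicates 1, 2 and 3, so that GDF15 replicate 1 was the lowest of them. Leaving that library out took its log2 ratio from 0.68 to 0.94, and leaving out GDF15 replicate 3 took it to 0.43.

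Among the surface proteins, PDGFRA had the greatest fold of the 7 genes and the lowest level. PDGFRA encodes the alpha receptor for platelet-derived growth factors, which marks fibroblasts. PDGFRA (ENSG00000134853, chromosome 4, 54229097 to 54298247, plus strand) had 50.7, 24.7 and 28.8 normalized counts with GDF15 and 13.5, 19.9 and 12.7 without. Only GDF15 replicate 1 stood far above the rest, and GDF15 replicate 2 was 4.82 normalized counts above Untreated replicate 2. The means were 34.7 ± 13.96 and 15.3 ± 3.96 (SD, n = 3), a 2.26-fold difference. Leaving out GDF15 replicate 1 took the log2 ratio from 1.18 to 0.80, a 1.74-fold difference.

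Few reads stood behind PDGFRA. Its values were whole multiples of a library's step, between 13 and 21 steps in Untreated and 22 and 49 in GDF15 libraries. If a step is 1 read, counting alone gives an SD of 3.78 among the Untreated libraries, where the measured SD was 3.96. Among the GDF15 libraries the measured SD was 2.28 times that of counting. Exons of a longer annotated locus on the same strand, AC058822.1, cover 15.8% of the PDGFRA exon bases, and how reads there were assigned is not given in the sources used here. Of the 7 PDGF ligand and receptor genes, PDGFB was the other 1 in the table. PDGFB, a ligand gene, had 816, 574 and 567 normalized counts with GDF15 and 566, 310 and 362 without. The groups met almost exactly, at 567 and 566.

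ENG encodes endoglin, a co-receptor for TGF-beta superfamily ligands that binds BMP9 and is best known from endothelium. ENG (ENSG00000106991, chromosome 9, 127815012 to 127854756, minus strand) had 4096, 3260 and 3023 normalized counts with GDF15 and 2781, 1913 and 2950 without. It was the most abundant of the 7, and GDF15 replicate 3 was only 1.02-fold above Untreated replicate 3. The means were 3460 ± 564 and 2548 ± 556 (SD, n = 3), a 1.36-fold difference. Without Untreated replicate 2 the log2 ratio of means was 0.27, against 0.44 with all libraries. If a step is 1 read, the SD between Untreated libraries was 11.5 times that of counting, the widest such ratio of the 7 genes. An antisense gene, AL162586.1, shares 7.95% of the ENG exon bases.

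LRRC15 encodes a leucine-rich repeat membrane protein that marks TGF-beta-driven myofibroblasts and tumour fibroblasts. LRRC15 (ENSG00000172061, chromosome 3, 194355247 to 194369743, minus strand) had 162, 121 and 111 normalized counts with GDF15 and 101, 50.2 and 87.9 without. The groups were 10.3 normalized counts apart at their nearest, and Untreated replicate 2 lay far below the other Untreated libraries. The means were 132 ± 27.3 and 79.6 ± 26.2 (SD, n = 3), a 1.65-fold difference. Without Untreated replicate 2 the log2 ratio went from 0.73 to 0.48.

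In a list of 42 genes of TGF-beta superfamily ligands, receptors and signalling, which also counts the TGF-beta-induced marker LRRC15, ENG, LRRC15 and GDF15 itself were in the table. All 3 were higher, GDF15 with overlapping groups. Of 27 markers of stellate activation 3 were in the table, and they were PDGFRA, ENG and LRRC15 themselves. None of the 16 quiescence markers, the 21 integrin and discoidin receptor genes or the 40 markers of hepatocytes, biliary epithelium, endothelium and leukocytes was in the table. Those 40 markers are short lists of 10 genes per cell type, and ENG is not on the endothelial list. Other genes known from epithelium (CLDN1, MUC1), endothelium (CD34, FLT1) or leukocytes (CD74) were in the table but on no list. Their log2 ratios of means were 1.86, 0.95, 0.49, 1.12 and 1.58. Others on no list were lower, such as the keratin genes KRT32 at -1.19 and KRT34 at -0.39, and F8 at -0.58, known from endothelium. These genes are examples only, so neither their directions nor the absence of listed markers is read as a result. Since the table holds only features with an unadjusted p under 0.05, the identity of the cells could not be checked on their defining markers.

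The 2 protease genes differed in how their libraries were ordered. CTSK encodes cathepsin K, a cysteine protease that cuts within the collagen triple helix and is best known from osteoclasts. CTSK (ENSG00000143387, chromosome 1, 150796208 to 150808323, minus strand) had 35.2, 44.9 and 52.1 normalized counts with GDF15 and 19.7, 21.8 and 29.3 without. GDF15 replicate 1, the highest GDF15 library of the other 6 genes, was the lowest for CTSK, and the groups were 5.87 normalized counts apart. The means were 44.1 ± 8.49 and 23.6 ± 5.05 (SD, n = 3), a 1.87-fold difference.

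Folds within replicate numbers were 1.79, 2.06 and 1.78 for CTSK, and its log2 ratio of means stayed between 0.76 and 1.09 with any 1 library left out. If a step is 1 read, its SDs were 1.22 and 1.09 times those of counting alone in GDF15 and Untreated libraries, with 19 to 47 steps per library. Among the 274 rows higher with GDF15, 13.1% had this order of GDF15 libraries, replicate 3 above 2 above 1. LOXL4 had the same order in both groups.

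PLAU encodes urokinase, the serine protease that turns plasminogen into plasmin. PLAU (ENSG00000122861, chromosome 10, 73909177 to 73917497, plus strand) had 913, 709 and 716 normalized counts with GDF15 and 655, 567 and 500 without. GDF15 replicate 1 stood apart from 2 close GDF15 libraries, and the groups were 53.6 normalized counts apart. The means were 779 ± 116 and 574 ± 78.1 (SD, n = 3), a 1.36-fold difference, with folds of 1.39, 1.25 and 1.43 within replicate numbers. The coefficient of variation was 14.9% and 13.6%, the lowest of the 7 genes in each group. C10orf55, a gene on the opposite strand, covers 31.1% of the PLAU exon bases, and without stated strand in counting their reads cannot be told apart.

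Of 43 matrix protease and inhibitor genes CTSK was in the table, and of 13 genes of the plasminogen system PLAU was. Of 48 other matrix protein genes, the laminin chain gene LAMB3 was in the table. LAMB3 had 1037, 393 and 395 normalized counts with GDF15 and 395, 284 and 393 without, so only GDF15 replicate 1 stood clear of Untreated replicates 1 and 3. Over the 5 matrix lists, 10 of 182 genes were in the table, or 5.49%, and all 10 were higher, as were 60.5% of all rows. The share of all measured genes that reach the table is unknown, so nothing is read from these counts.

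Per kilobase of annotated exon, the Untreated level of the 7 genes ran from 1.58 ± 0.407 normalized counts for PDGFRA to 648 ± 141 for ENG (SD, n = 3). PLAU came next to ENG at 195 ± 26.5, and its libraries overlapped neither those of ENG nor those of COL7A1. COL7A1 at 18.5 ± 4.66, LRRC15 at 13.4 ± 4.41, CTSK at 12.5 ± 2.67 and COL27A1 at 9.998 ± 2.87 lay close together, and each overlapped the next in this order. The libraries of COL27A1 did not overlap those of PDGFRA.

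**Figure D2:**
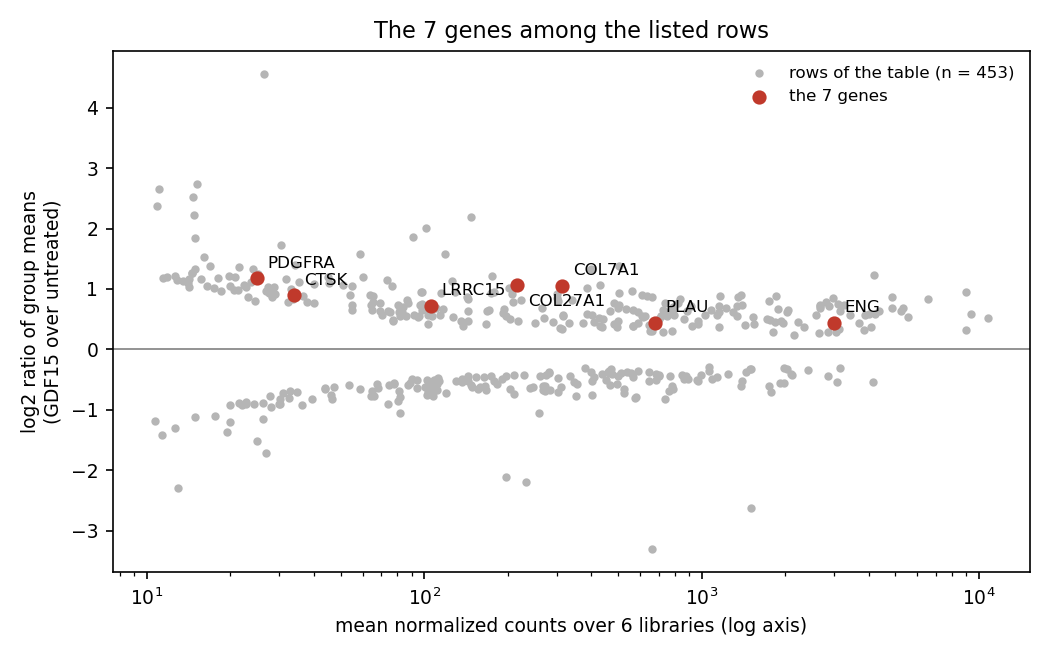
Log2 ratio of group means, GDF15 over untreated (y axis), against the mean normalized counts over 6 libraries (x axis, log scale) for all 453 rows (grey) and the 7 genes (red). The 7 genes lie between 0.44 and 1.18, inside the band of listed rows, and rows near 0 are missing because the table was selected on p.

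Single libraries carried part of each difference. Leaving out 1 library at a time, the log2 ratio of means of COL27A1 ran from 0.86 to 1.26, that of COL7A1 from 0.82 to 1.25 and that of PDGFRA from 0.80 to 1.41. The ranges were 0.27 to 0.56 for ENG, 0.48 to 0.93 for LRRC15 and 0.31 to 0.55 for PLAU. The lowest value came without GDF15 replicate 1 for COL7A1, PDGFRA and PLAU, without Untreated replicate 2 for COL27A1, ENG and LRRC15, and without GDF15 replicate 3 for CTSK. Because the groups did not overlap, leaving out libraries could not turn any of these directions.

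**Figure D3:**
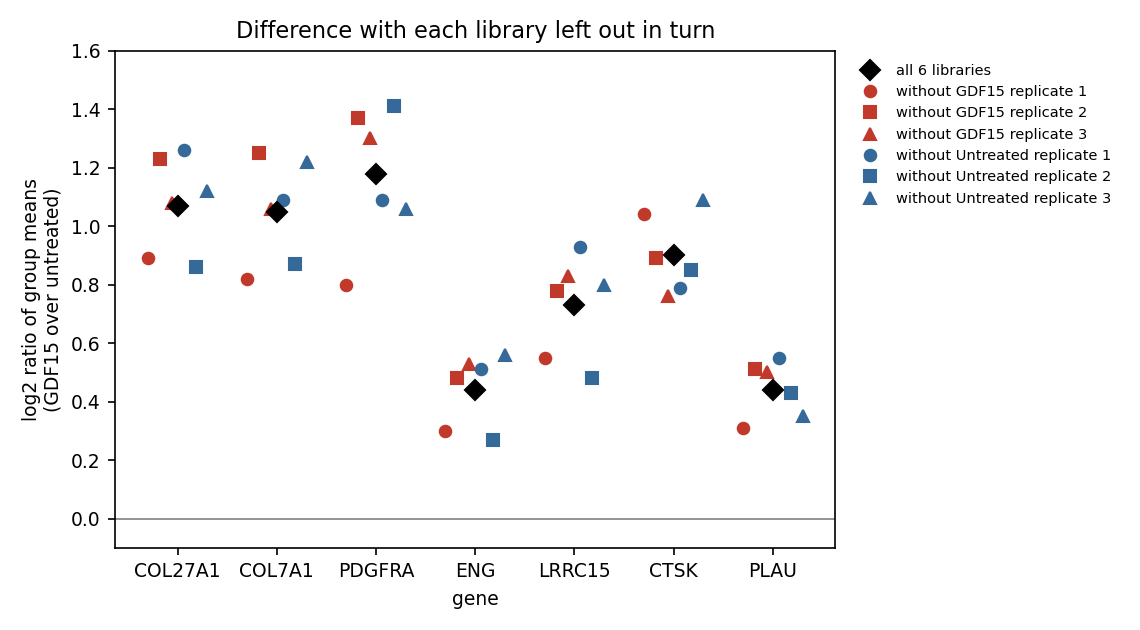
Log2 ratio of group means, GDF15 over untreated (y axis), for each gene (x axis) with all 6 libraries (black diamond) and with each library left out (red for a GDF15 and blue for an Untreated library, 1 marker shape per replicate number). The values of ENG and PLAU go down to 0.27 and 0.31, and those of CTSK stay at or above 0.76.

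Single libraries were also extreme across the table. GDF15 replicate 1 was the highest GDF15 library for 6 of the 7 genes and for 65.7% of the 274 rows higher with GDF15. Untreated replicate 2 was the lowest Untreated library for 4 of the 7, both collagens, ENG and LRRC15, and for 68.2% of those rows. Untreated replicate 1 was the highest Untreated library for 3 of the 7 and for 66.1% of those rows. With GDF15 replicate 1 and Untreated replicate 2 both left out, a choice made after seeing the data, the log2 ratios of means were 0.68 for COL27A1, 0.63 for COL7A1, 0.13 for ENG, 0.30 for LRRC15 and 0.30 for PLAU. PDGFRA at 1.03 and CTSK at 0.99 were then the 2 highest. These values rest on 2 libraries per group.

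**Figure D4:**
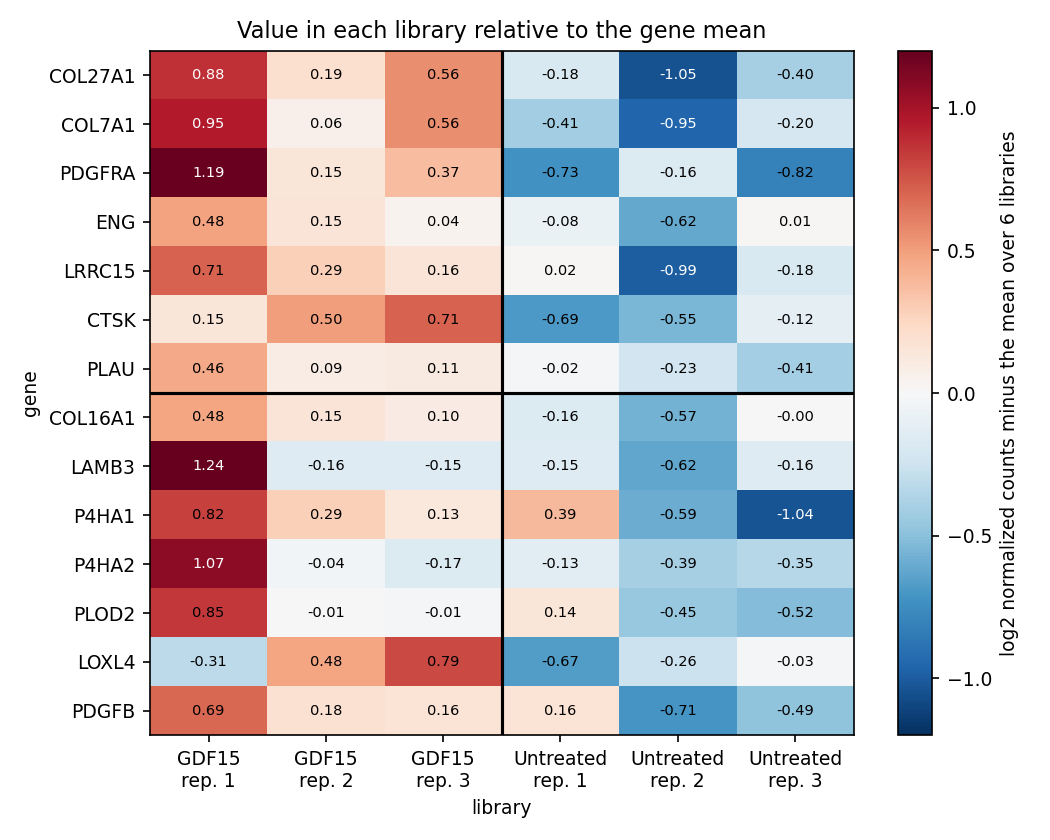
Colour and printed number give the log2 normalized count in each library (columns) minus the gene's mean over 6 libraries, for the 7 genes above the horizontal line and 7 related genes of the table below it. GDF15 replicate 1 is the highest column for most rows, at 1.19 in PDGFRA and 1.24 in LAMB3, whereas CTSK at 0.15 and LOXL4 at -0.31 are lower there than in the other GDF15 libraries.

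GC content moved with the libraries. Over 451 annotated rows, Spearman's rho between the GC content of the transcript and a library's deviation from the other libraries of its group was 0.20, -0.21 and -0.13 for GDF15 replicates 1, 2 and 3 and 0.38, -0.54 and 0.41 for Untreated replicates 1, 2 and 3, given as a description. It was thus farthest from 0 in Untreated replicate 2. Because each deviation is taken from the other libraries of the group, the opposite sign in the other Untreated libraries largely follows from that. Rows higher with GDF15 had a median GC content of 57.3% and lower rows 42.5%. Of the 7 genes, COL7A1 at 64.8%, ENG at 62.99%, COL27A1 at 61.3%, LRRC15 at 54.9% and PLAU at 52.6% were above the median of all annotated rows, 51.2%. CTSK at 46.3% and PDGFRA at 42.9% were below it, and their log2 ratios were the highest of the 7 when GDF15 replicate 1 and Untreated replicate 2 were left out. That ranking follows in part from the libraries chosen. GDF15 replicate 1 was the lowest GDF15 library for CTSK, and Untreated replicate 2 the highest Untreated library for PDGFRA. PDGFRA was also the highest of the 7 with all libraries, at 1.18, so nothing about GC content is read from the ranking. The part of GC content in the differences was not tested.

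**Figure D5:**
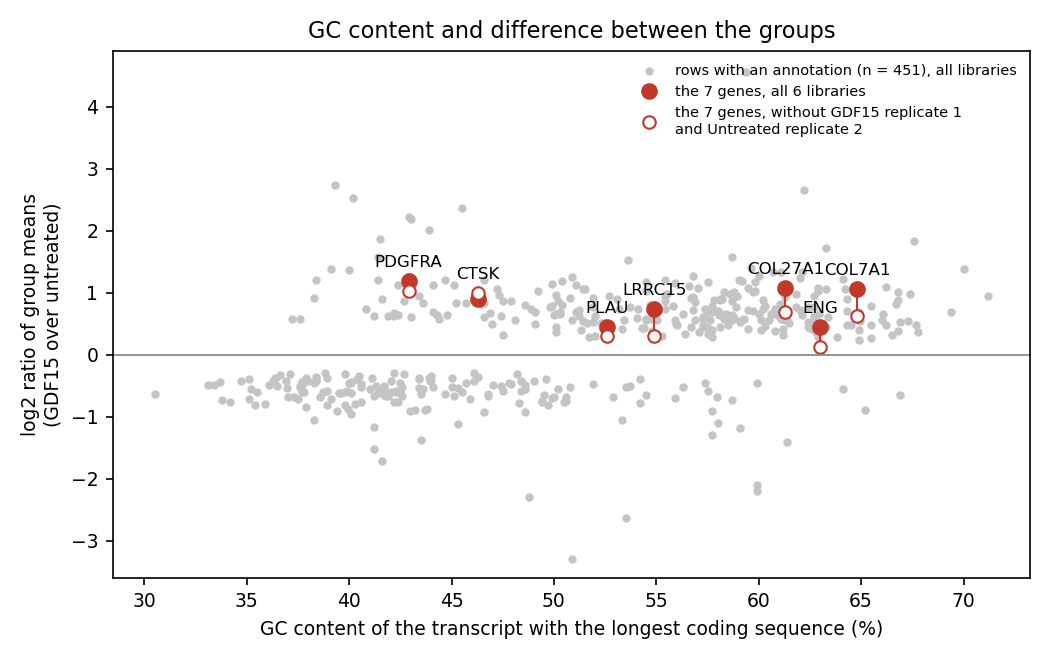
Log2 ratio of group means (y axis) against GC content of the transcript with the longest coding sequence in percent (x axis) for 451 annotated rows (grey) and the 7 genes with all libraries (filled red) and without GDF15 replicate 1 and Untreated replicate 2 (open red, joined by a line). The open points of PDGFRA and CTSK, at 42.9% and 46.3% GC, lie at 1.03 and 0.99, above those of the other 5 genes. The libraries left out were chosen after seeing the data, and that choice in part sets this order.

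The ERCC spike-in in the table, ERCC-00157, was lower with GDF15, at 19.7, 17.98 and 13.3 normalized counts against 29.03, 38.9 and 26.9, without overlap. Whether the authors' factors use spike-ins is not stated, and the part of scaling by spike-ins in the differences was not tested.

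By Pearson's r of log2(normalized count + 1) over the 6 libraries, the rows most like each gene were GGT7 and BMF for COL27A1 (0.982 and 0.980), and SPATA13 and MUC1 for COL7A1 (0.976 and 0.973). They were AMPD3 and RASSF4 for PDGFRA (0.966 and 0.960), and CNTNAP1 and the collagen gene COL16A1 for ENG (0.995 and 0.990). NIM1K and ZSWIM4 were most like LRRC15 (0.985 each), SPDYE6 and MAMDC4 most like CTSK (0.983 and 0.966), and P2RX4 and DEPP1 most like PLAU (0.993 and 0.975). These values include the difference between groups on which all rows were listed, they rest on 6 libraries that share depth and preparation, and SPDYE6 belongs to a family of near-identical copies whose reads may be shared.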

How the data were processed

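RNA of 3 GDF15 and 3 Untreated LX2 libraries was measured. Per the labels' protocols, ERCC RNA was added to total RNA and poly(A) RNA was selected with NEBNext Ultra II reagents. The submitters' processing notes name Trimmomatic 0.36, STAR 2.5.2b, featureCounts, Subread 1.5.2, DESeq2 and build GRCh38. Gene annotation and strand setting are not stated there.

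The deposited table holds the authors' log2 fold change, their unadjusted and adjusted p-value, and 6 columns of signal per library, called normalized counts. In each column 100% of values were whole multiples of 1 step within 0.001 of a step, with steps of 0.792 to 1.12. All rows had an unadjusted p under 0.05, so full depth is unknown and no count test was run.

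Columns were matched to samples by library name, with 0 left unmapped. Folds are ratios of group means over 3 libraries, within 0.0129 of the authors' log2 values for the 7 genes. The genes were chosen on this contrast, with earlier results of these data known, as were the gene lists and motifs, so values are described without a test. Named are the 7 genes, other list members in the table, the spike-in, and some genes of other cell types given as examples. For each gene the 2 rows most like it are also named, among rows outside the 7 with a mean of at least 20 normalized counts. Limma 3.58.1 in R 4.3.3, tested on simulated data, was run on log2(normalized count + 1) over the 453 rows only to count calls. Positions, exon lengths and GC content come from GENCODE release 29 on GRCh38, matched for 451 rows, and promoter windows from RefSeq on GRCh38.p14. The rest used Python 3.11.15 (pandas 2.3.3, scipy 1.17.1, numpy 2.4.6; figures with matplotlib 3.10.9). Alternatives were other pseudocounts, group medians, another scaling, a replicate block and libraries left out.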

Additional observations from a re-analysis of the deposited data

How the results depend on the processing

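All 91 values of the log2 ratio of means of the 7 genes under alternatives were above 0, and 87 were within 1 SD between libraries of the value given. Both counts were largely fixed in advance. Without overlap, leaving out libraries cannot change a sign, and leaving out 1 moves a group mean by less than the SD of single libraries. That SD is a wide limit, 0.29 for ENG, so the 87 are not read as robustness. With GDF15 replicate 1 and Untreated replicate 2 both left out, chosen after seeing the data, COL7A1 went to 0.63, ENG to 0.13 and LRRC15 to 0.30. Rescaling by the median of ratios over the listed rows lowered the median of all rows by 0.20, from 0.47 to 0.27. PLAU then had 0.23 and ENG 0.24, each from 0.44, and the genes without overlap went from 7 to 4, with overlap in PDGFRA, ENG and CTSK. Of all rows, 20.5% were then higher without overlap, against 37.3% before. The cause of these shifts was not tested. That scaling rests on rows listed for their difference, and all 7 genes and the other 8 list members in the table remained higher. With 1 library left out at a time, the value of COL7A1 ran from 0.82 to 1.25, of ENG from 0.27 to 0.56, of LRRC15 from 0.48 to 0.93 and of the median over the genes from 0.80 to 1.06, and the groups of all 7 did not overlap in any case, as their construction requires. Over the 274 rows higher with GDF15 the median went from 0.70 to 0.48 without GDF15 replicate 1.

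The count of features past an adjusted p of 0.05 was 0 in the authors' deposited table, against 453 at an unadjusted p under 0.05. Limma within the listed rows also gave 0 in each setting, with 159 at an unadjusted p under 0.05. With the replicate block that number was 229. The deviations of same-numbered libraries correlated at 0.11, 0.22 and -0.05, and those of differently numbered libraries at -0.19 to 0.08. The first 2 were thus the highest of all, and the third lay among the others. These values do not settle whether the numbers are pairs, and the main values do not use them as pairs. With the block, as the mean of log2 ratios within numbers, the median over the 7 genes was 0.90. That mean equals the difference between group means of log2 values for any pairing, so it could not show an effect of pairing. The edgeR fit on whole reads was not run. All values were multiples of the steps found here, but a separate check of the low values did not find these steps, so the reads were not taken as recovered. If a step is 1 read, counting limits PDGFRA and CTSK most, at 13 to 49 steps per library.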
